A study of Arabidopsis thaliana with 6 samples.

Results

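Ethylene-responsive factors (ERF) and their RAP2 relatives are plant transcription factors of the AP2/ERF family. The 6 genes described here, ERF1A, ERF5, ERF6, ERF8, RAP2-1 and RAP2-13, were taken by name from the authors' deposited table of genes with more RNA in mrg1 mrg2 mutants of Arabidopsis thaliana than in the Col-0 wild type. They are 6 of 531 genes in that table, and 552 genes were listed in all with the 21 that had less RNA. The genes were thus selected on the authors' adjusted p-value and fold change between the genotypes. Their levels and fold changes are therefore given as a description, without a test.

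The mutant is defective in both MRG1 and MRG2, chromodomain proteins that bind methylated histone H3 at active genes. Nothing in the labels names the alleles. Both genotypes had the Columbia-0 background and were grown on soil at 22 °C with 16 h light and 8 h dark, after the seeds had been kept at 4 °C for 3 days. Leaves and stem of 12-day-old seedlings were taken 8 h after lights on, and 3 mrg1 mrg2 and 3 Col-0 libraries came from 3 independent experiments.

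Proteins of this family bind DNA through an AP2 domain. ERF proteins are best known for the GCC box of defence gene promoters, and DREB proteins, to which RAP2-1 and RAP2-13 belong, for the dehydration-responsive element of cold and drought genes. Some activate their targets, and others carry a short EAR motif that recruits corepressors and lowers transcription. Several, ERF5 and ERF6 among them, link osmotic and oxidative stress to the growth of young leaves.

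By inference from its adjusted p-values, 22995 genes entered the authors' test. The 6 genes are among the 531 listed as higher in mrg1 mrg2, or 2.31% of the genes tested; 0.0913% were listed as lower, and 2.4% in either direction. The log2 fold changes nearest to 0 in the authors' deposited tables were 0.59 among higher genes and -1.06 among lower genes, so the lists in the 2 directions reach down to different sizes and their shares are not comparable. The counts of unlisted genes were not used here, so the depth of each library is unknown, although the labels give a minimum read number per library, with reads of 50 bp. The identity of the tissue could not be checked against markers for the same reason. MRG2 had 133 ± 55.4 normalized counts in mrg1 mrg2 and 406 ± 20.9 in Col-0 (SD, n = 3 each), which goes with the labels, and MRG1 was not among the listed genes. Normalized counts are the deposited read counts divided by size factors of 0.955 to 1.07.

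The annotation splits the 6 genes into 4 kinds. ERF1A, ERF5 and ERF6 belong to ERF subfamily B-3, ERF8 to ERF subfamily B-1, RAP2-1 to DREB subfamily A-5 and RAP2-13 to the DREB clade A-6. The annotated proteins have 268 residues in ERF1A, 300 in ERF5, 282 in ERF6, 185 in ERF8, 153 in RAP2-1 and 261 in RAP2-13. Each holds a single AP2 domain, near the amino terminus in ERF8 and RAP2-1 and further along the chain in the other 4 genes. An EAR motif of the DLN type was found at residue 177 of ERF8 and at residue 143 of RAP2-1, close to the carboxyl end of both, and in none of the other 4 proteins. ERF5 and ERF6 were the closest pair, with 58.5% identical positions over the whole protein and 86.8% over the core of the AP2 domain. ERF1A shared 32.9% of the whole protein with ERF5 and 31.2% with ERF6, but 84.2% and 81.6% of the domain core. The lowest identity of the domain core among the 6 proteins was 54.1%, between ERF8 and RAP2-1, the pair that carries the EAR motif.

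**Figure D1:**
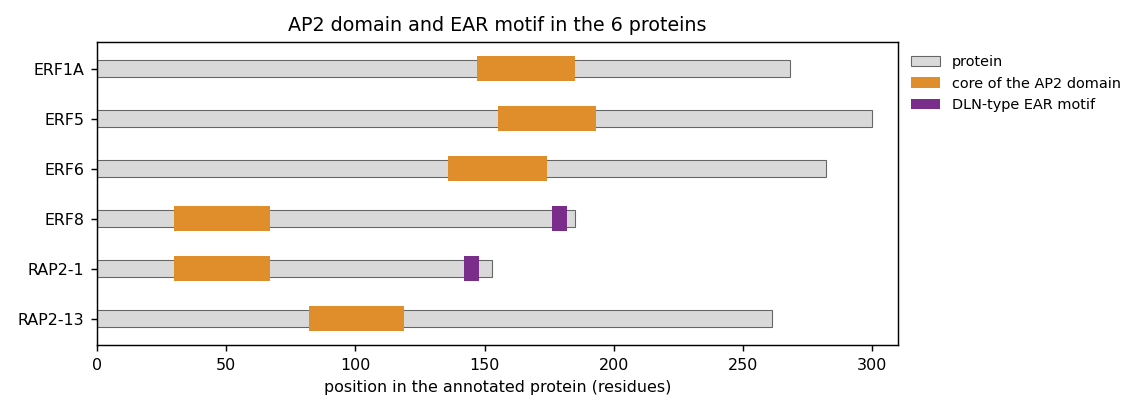
Annotated proteins of the 6 genes drawn to scale, with the position in residues on the horizontal axis and 1 row per protein. Orange marks the core of the AP2 domain and purple the DLN-type EAR motif, which is present only in ERF8 and RAP2-1 among these 6 proteins.

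No base window of read length, 50 bp, in the exons of any of the 6 genes recurred elsewhere in the nuclear genome, so an exact read of another nuclear gene would not match them. In the RefSeq annotation of TAIR10.1, ERF6 (chr4:9752824-9754161, minus strand) and ERF1A (chr4:9759203-9760391, plus strand) are direct neighbours. They are transcribed away from each other across a gap of 5041 bp with no annotated gene between them. ERF5 (chr5:19179881-19181182, plus strand) stands 6924 bp from ERF2, which was not listed, with 2 annotated genes in between. ERF8 (chr1:19821337-19822399, minus strand), RAP2-1 (chr1:17265586-17266824, minus strand) and RAP2-13 (chr1:7835781-7837411, plus strand) lie apart on chromosome 1. Apart from the ERF6 and ERF1A pair, no gene directly beside any of the 6 was listed.

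The 250 bp upstream of the annotated transcript starts of ERF1A and ERF8 are printed because these were the only 2 of the 6 genes with a G box, the hexamer CACGTG bound by bZIP and bHLH factors. Capitals mark the G box in both and, in ERF1A, the W-box core TTGAC that WRKY factors bind. The stretches are chr4:9758953-9759202 on the plus strand for ERF1A and chr1:19822253-19822502 on the minus strand for ERF8, both in RefSeq's TAIR10.1 and written 5′ to 3′.
ERF1A: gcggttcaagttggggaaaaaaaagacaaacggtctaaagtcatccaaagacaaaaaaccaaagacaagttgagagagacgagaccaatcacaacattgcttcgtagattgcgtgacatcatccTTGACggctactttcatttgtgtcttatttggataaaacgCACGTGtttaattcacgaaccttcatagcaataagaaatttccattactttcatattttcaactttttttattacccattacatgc
ERF8: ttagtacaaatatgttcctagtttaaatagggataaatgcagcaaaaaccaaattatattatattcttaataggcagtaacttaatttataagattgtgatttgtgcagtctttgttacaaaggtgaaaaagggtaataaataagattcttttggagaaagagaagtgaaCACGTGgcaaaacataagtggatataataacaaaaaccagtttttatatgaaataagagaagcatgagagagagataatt

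The G box lay from -86 to -81 in ERF1A and from -80 to -75 in ERF8, counted from the transcript start. The annotated transcript of ERF8 starts at position 19822252, inside the gene bounds given above, so its G box also lies within those bounds and its distance depends on the start used. Read on both strands, it occurred in 6.49% of 27443 promoters of the same length. The W-box core was present upstream of ERF1A and ERF5, and in 44.9% of all promoters. The core of the dehydration-responsive element, CCGAC, was present upstream of ERF5 alone and in 12.0% of all promoters. The ERF5 window overlaps another annotated protein-coding gene, whose nearest end lies 31 bp from ERF5. The GCC box, GCCGCC, the motif that ERF proteins themselves bind, was in none of the 6 promoters and in 1.87% of all promoters. It was absent from all 6 also when the window was widened to 1000 bp, where 8.45% of promoters held it. In the wider window CCGAC was upstream of ERF5 and ERF6 and in 37.5% of all promoters. The W-box core was then upstream of 5 of the 6 genes and in 88.1% of all promoters. The G box was still upstream of ERF1A and ERF8 alone among the 6, and in 14.8% of all promoters. These matches describe letters in fixed windows only.

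Each of the 6 genes had more reads in every mrg1 mrg2 library than in any Col-0 library, with 1.72 to 2.33 times the mean normalized count. In normalized counts, too, the genotypes did not overlap in any of the 6, as in 530 of the 531 listed higher genes, or 99.8%; in reads this held for 527 of the 531. Size factors centred on the listed genes themselves, nearly all of them higher, lowered every difference by about the same amount, and under them ERF1A, ERF5 and ERF6 had log2 differences of -0.23, -0.20 and -0.071. In whole aerial parts, more cells of a type that uses a gene and more RNA per cell cannot be told apart.

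**Figure D2:**
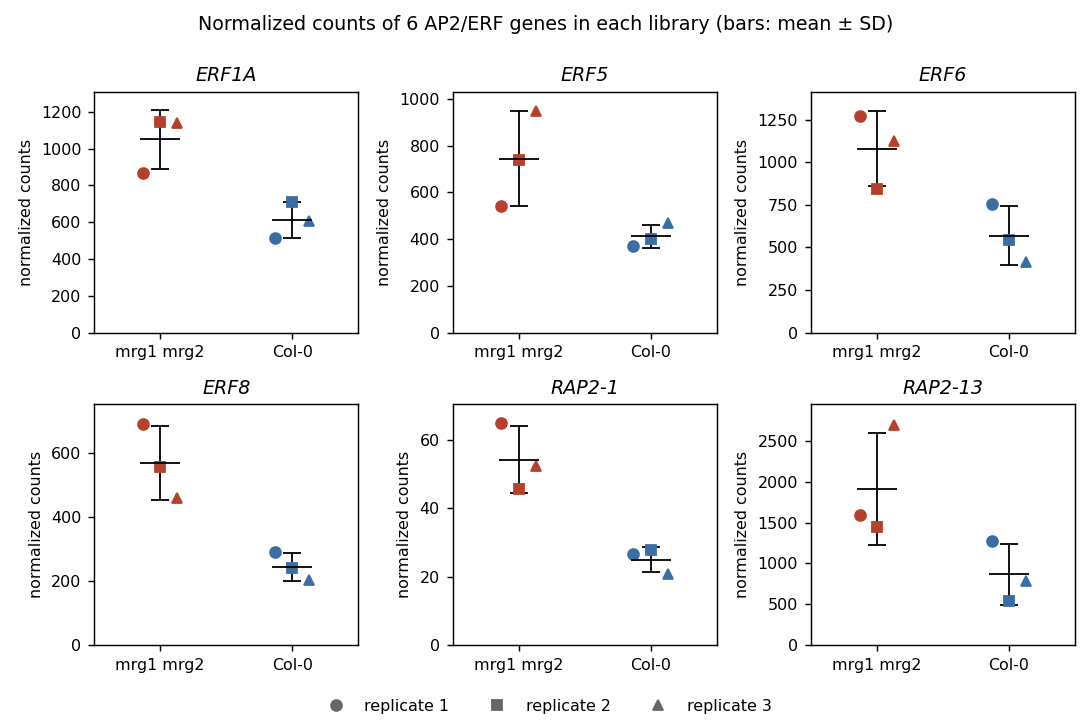
Normalized counts of the 6 genes in each library, mrg1 mrg2 on the left and Col-0 on the right of each panel. Each vertical axis starts at 0 and has its own scale; symbols give the replicate number, the long bar the mean and the short bars ± 1 SD (n = 3). In every panel the lowest mrg1 mrg2 library stands above the highest Col-0 library.

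Among the activators of subfamily B-3, ERF1A, which binds the GCC box, had 828, 1231 and 1110 reads in mrg1 mrg2 replicates 1 to 3, against 523, 689 and 615 reads in Col-0 replicates 1 to 3. Replicate 1 was the lowest library in both genotypes. Normalized, this was 1051 ± 159 in mrg1 mrg2 and 610 ± 97.4 in Col-0 (SD, n = 3 each). The fold of the means was 1.72, the smallest of the 6, and the authors' deposited table gave ERF1A a log2 fold change of 0.78 with an adjusted p of 0.00202.

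ERF5, a substrate of stress-activated MAP kinases, had 517, 794 and 926 reads in mrg1 mrg2, against 377, 387 and 474 in Col-0. Replicate 3 was the highest library in both genotypes, and mrg1 mrg2 replicate 1 came closest to the wild type. The mean was 744 ± 204 normalized counts in mrg1 mrg2 and 412 ± 49.7 in Col-0 (SD, n = 3 each), a fold of 1.80. For ERF5 the authors' deposited table gave a log2 fold change of 0.85 and an adjusted p of 0.0110.

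ERF6, which is phosphorylated by MPK3 and MPK6 and restrains leaf growth under osmotic stress, had 1216, 904 and 1094 reads in mrg1 mrg2, against 766, 526 and 419 in Col-0. Here replicate 1 was the highest library in both genotypes, unlike in its neighbour ERF1A. The mean was 1079 ± 219 normalized counts in mrg1 mrg2 and 570 ± 172 in Col-0 (SD, n = 3 each), a fold of 1.89. The lowest mutant library was only 1.12 times the highest Col-0 library. ERF6 had a log2 fold change of 0.92 and an adjusted p of 0.0172 in the authors' deposited table.

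Of the pair with an EAR motif, ERF8, a transcriptional repressor, had 659, 597 and 446 reads in mrg1 mrg2, against 294, 234 and 204 in Col-0. The libraries of both genotypes stood in the same order, highest in replicate 1 and lowest in replicate 3. The mean was 568 ± 117 normalized counts in mrg1 mrg2 and 244 ± 44.2 in Col-0 (SD, n = 3 each). Its fold of 2.33 was the largest of the 6 genes. ERF8 also had the smallest adjusted p of the 6 in the authors' deposited table, 9.68e-06, with a log2 fold change of 1.22.

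RAP2-1, a DREB repressor of cold and drought response genes, was the least abundant, with 62, 49 and 51 reads in mrg1 mrg2, against 27, 27 and 21 in Col-0. The genotypes were separated by a clear gap, the lowest mutant library holding 1.64 times the normalized count of the highest Col-0 library, which was the widest gap of the 6. The mean was 54.3 ± 9.79 normalized counts in mrg1 mrg2 and 25.0 ± 3.79 in Col-0 (SD, n = 3 each), a fold of 2.17. In the authors' deposited table RAP2-1 had a log2 fold change of 1.12 and the largest adjusted p of the 6 genes, 0.0346.

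RAP2-13 is a DREB relative of RAP2.4, a factor known for driving dedifferentiation of cells at wounds, and shares 52.3% of its protein and 100% of its domain core with it. It had 1523, 1547 and 2629 reads in mrg1 mrg2, against 1292, 525 and 797 in Col-0. Replicate 3 stood far above the other mutant libraries, and Col-0 replicate 1 stood close under the mutant range. The mean was 1911 ± 685 normalized counts in mrg1 mrg2 and 866 ± 372 in Col-0 (SD, n = 3 each), a fold of 2.21, and the coefficients of variation, 35.8% and 43.0%, were the largest of the 6 genes. The authors' deposited table gave RAP2-13 a log2 fold change of 1.14 and an adjusted p of 0.0321. RAP2-1 and RAP2-13 were nearest to the end of the authors' deposited table, whose largest adjusted p was 0.0497, and genes beyond it have no values here.

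Divided by exon length, levels in mrg1 mrg2 were highest for RAP2-13, at 1172 ± 420 normalized counts per kb (SD, n = 3, as for the other levels per kb). ERF1A at 884 ± 134, ERF6 at 807 ± 163, ERF8 at 620 ± 127 and ERF5 at 571 ± 157 followed in mrg1 mrg2, and RAP2-1 came last at 43.8 ± 7.90. In Col-0 the levels per kb were 531 ± 228 for RAP2-13, 513 ± 81.9 for ERF1A, 426 ± 129 for ERF6, 317 ± 38.1 for ERF5, 266 ± 48.2 for ERF8 and 20.2 ± 3.06 for RAP2-1. Only RAP2-1 stood apart from its neighbour in this order. Every other pair of neighbours overlapped in its libraries, in both genotypes, including ERF8 and ERF5, whose means changed places.

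Comparing libraries with the same replicate number, taken to come from the same experiment, each of the 6 genes was higher in mrg1 mrg2 in all 3 experiments, as were all 531 listed higher genes. ERF8 had the most even difference, 1.25, 1.21 and 1.18 on the log2 scale in experiments 1 to 3, with a mean of 1.21 and a standard error of 0.020 (n = 3). ERF1A followed, with 0.75, 0.69 and 0.91 and a standard error of 0.064. ERF5 was less even, with 0.54, 0.89 and 1.02 and a standard error of 0.14, and so was RAP2-1, with 1.27, 0.71 and 1.32 and a standard error of 0.20. ERF6 had differences of 0.76, 0.64 and 1.44 and a standard error of 0.25. RAP2-13 was the least even, with a log2 difference of 0.33 in experiment 1, 1.41 in experiment 2 and 1.78 in experiment 3 and a standard error of 0.44. The difference was largest in experiment 3 for 5 of the 6 genes, ERF8 being the exception, and for 239 of the 531 higher genes, or 45.0%.

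**Figure D3:**
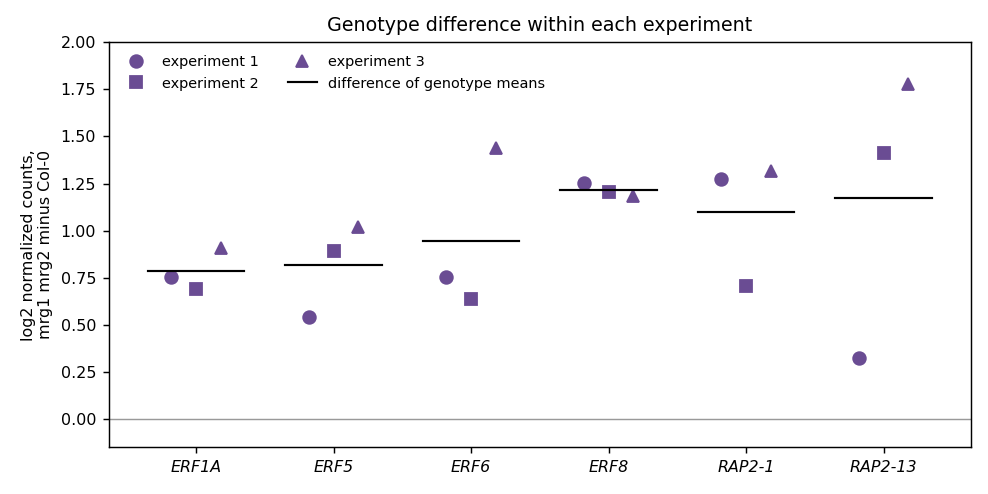
Difference between mrg1 mrg2 and Col-0 within each of the 3 experiments, in log2 normalized counts, for the 6 genes on the horizontal axis. Points are experiments and bars the difference of the genotype means. All points lie above 0; those of ERF8 lie between 1.18 and 1.25, and those of RAP2-13 between 0.33 and 1.78.

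How each gene varied among libraries of 1 genotype was then described; that spread entered the authors' p-value, and so the choice of the genes, by its size. For ERF1A, ERF5, ERF6 and ERF8 the highest library had the same replicate number in both genotypes, as it had for 236 of the 531 higher genes, or 44.4%. That number differed between the genes, being 2 for ERF1A, 3 for ERF5 and 1 for ERF6 and ERF8. Deviations from the genotype mean over the 6 libraries ran together for ERF1A and ERF5 (Pearson r = 0.66). They also ran together for ERF6, ERF8 and RAP2-1, with r of 0.68 for ERF6 and ERF8, 0.81 for ERF6 and RAP2-1 and 0.70 for ERF8 and RAP2-1. Between these sets the deviations ran in opposite directions, from r = -0.94 for ERF5 and ERF8 to r = -0.43 for ERF1A and RAP2-1. RAP2-13 belonged to neither set, with r of 0.52 with ERF6, 0.31 with ERF5, -0.03 with RAP2-1, -0.06 with ERF8 and -0.41 with ERF1A. The chromosome neighbours ERF6 and ERF1A had r = -0.63, and the similar proteins ERF5 and ERF6 r = -0.49. These values rest on 6 libraries that all genes share and are descriptions only. Since deviations are centred within each genotype, they hold fewer free values than libraries. The sets therefore only sort the signs of r, and differences in its size cannot be read.

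**Figure D4:**
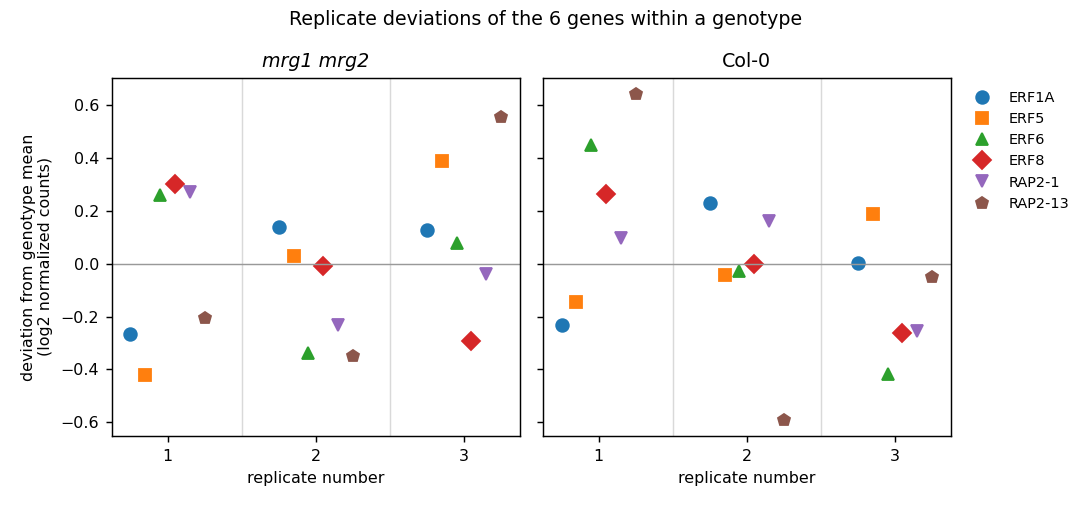
Deviation of each of the 6 genes from its genotype mean, in log2 normalized counts, by replicate number, for mrg1 mrg2 on the left and Col-0 on the right. In replicate 1 of both genotypes ERF1A and ERF5 lie below 0 and ERF6, ERF8 and RAP2-1 above 0, whereas RAP2-13 lies below 0 in mrg1 mrg2 and above 0 in Col-0.

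Col-0 replicate 1 was the highest wild-type library for 3 of the 6 genes, and for 259 of the 531 higher genes, or 48.8%. In RAP2-13 it exceeded the mean of Col-0 replicates 2 and 3 by 0.96 on the log2 scale, in ERF6 by 0.67, in ERF8 by 0.39 and in RAP2-1 by 0.14. The Col-0 replicate 1 value lay below that mean in ERF5, with a difference of -0.22, and in ERF1A, with a difference of -0.35. The median was 0.27 over the 6 genes and 0.13 over all higher genes. Without Col-0 replicate 1 the log2 difference between genotypes was 1.49 in RAP2-13, against 1.17 with all libraries, 1.17 in ERF6, against 0.94, 1.34 in ERF8, against 1.21, and 1.15 in RAP2-1, against 1.10. It was 0.67 in ERF1A, against 0.78, and 0.75 in ERF5, against 0.82.

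Among 430 other listed genes with a mean of at least 50 normalized counts, the deviations most like the mean deviation of the 6 genes belonged to AT5G18360 (r = 0.98) and AT1G66090 (r = 0.97), both described as disease resistance proteins. MYB73, a MYB factor gene, with r = 0.95, AT3G16510 with r = 0.95 and AZF1, a zinc finger factor gene, with r = 0.94 came next. The median r over the 430 genes was 0.17, and 13 of them had r of at least 0.9. The genes named are the highest of 430 values that each rest on 6 libraries, so no link in function can be read from them. The mean deviation averages over genes whose own deviations ran in opposite directions.

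Set beside all 531 listed higher genes, the 6 had a higher median count, not divided by length, of 897 normalized counts in mrg1 mrg2 and 491 in Col-0, against medians over the listed genes of 227 in mrg1 mrg2 and 111 in Col-0. RAP2-1 was the exception, with counts below the first quartile of the listed genes, 89.6 in mrg1 mrg2 and 32.8 in Col-0. Their median log2 fold change in the authors' deposited table was 1.02, and that of all higher genes 1.08. The median coefficient of variation was 20.4% in mrg1 mrg2 and 17.0% in Col-0 for the 6 genes, against 14.0% in mrg1 mrg2 and 18.8% in Col-0 for all higher genes. When the listed genes were refitted with edgeR's quasi-likelihood test, ERF8 and RAP2-1 passed at the largest p-value of the authors' deposited table, 0.00161, beside 375 of all 531 higher genes, or 70.6%. With replicate number as a block in the edgeR fit 4 passed, ERF1A and ERF5 in addition, beside 73.3% of all higher genes. With DESeq2 in place of edgeR all 6 passed, beside 83.6%. Leaving out 1 library at a time gave 1 to 4 genes in the edgeR fit, the lowest without Col-0 replicate 2, Col-0 replicate 3 or mrg1 mrg2 replicate 3 and the highest without Col-0 replicate 1, while the share of all higher genes ranged from 35.6% to 73.4%. These refits cover genes selected for the same difference and describe only the dependence on the model.

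The AP2/ERF family was taken as 141 genes, by annotated name or description, with the 6 genes and a fixed list of AP2/ERF genes added. Of these, 13 were listed as higher, or 9.22%, beside 2.31% of all genes tested, and 0 as lower, beside 0.0913%. The match by words took in some genes of other families and missed some AP2 genes; of 123 genes that also held the AP2 domain pattern, the same number, 13, was listed as higher, or 10.6%. How many of these genes the authors tested is unknown. The 6 genes chosen from the list are themselves among the 13. The other 7 were RAV1, TEM1, RAV2, CBF2, ERF055, ERF018 and AT2G33710. RAV1, TEM1 and RAV2, also called TEM2, combine an AP2 with a B3 domain, and both TEM factors repress flowering. RAV2 had the largest fold of these, with 3969 ± 468 normalized counts in mrg1 mrg2 and 1083 ± 597 in Col-0. RAV1 had 3867 ± 819 in mrg1 mrg2 and 1884 ± 328 in Col-0, and TEM1 had 3913 ± 694 in mrg1 mrg2 and 2113 ± 253 in Col-0 (SD, n = 3 each). Per kb of exon they reached 2145 for RAV1, 2225 for TEM1 and 1928 for RAV2 in mrg1 mrg2, above the mean of RAP2-13, the highest of the 6.

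CBF2, an activator of cold response genes, had 293 ± 85.8 normalized counts in mrg1 mrg2 and 153 ± 19.4 in Col-0 (SD, n = 3 each). ERF055 had 78.2 ± 33.7 in mrg1 mrg2 and 26.7 ± 9.39 in Col-0, and AT2G33710, annotated as an ERF gene, had 32.1 ± 3.63 in mrg1 mrg2 and 9.0 ± 1.0 in Col-0. ERF018 was the only listed higher gene whose libraries overlapped, with 765, 1442 and 1735 normalized counts in mrg1 mrg2, against 411, 378 and 888 in Col-0.

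**Figure D5:**
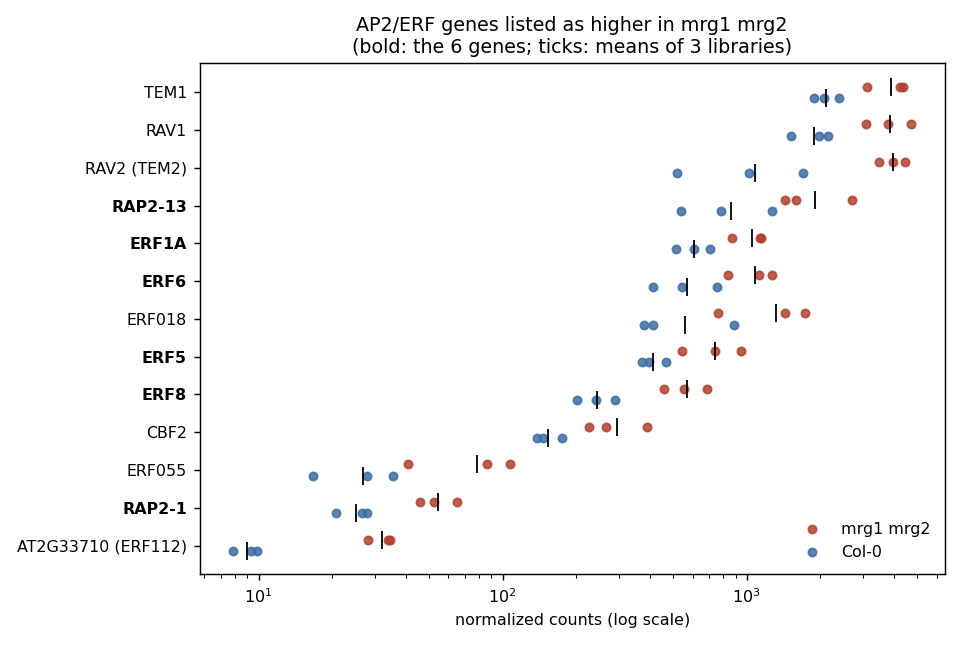
Normalized counts, on a log axis, of the 13 AP2/ERF genes listed as higher, ordered by their mean in Col-0 and not divided by gene length. Red points are mrg1 mrg2 libraries, blue points Col-0 libraries and ticks the means of 3 libraries; names in bold are the 6 genes. ERF018 is the only row in which a Col-0 library, at 888, lies above a mrg1 mrg2 library, at 765.

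Most genes of the ethylene pathway were not among the listed genes, as holds for most genes tested. Absence from the lists does not show that a gene was unchanged, and it is no result about the pathway. The counts below stand beside 2.31% of all tested genes listed as higher and 0.0913% listed as lower. At such shares a set this small would hold few or no listed genes. The lists were chosen with earlier results of these data known, so the counts are a description and test nothing. Of 13 genes of ethylene synthesis, ACO5 (AT1G77330), an ACC oxidase gene of the last step, was listed as higher and 12 were not listed. ACO5 had 79.8 ± 10.4 normalized counts in mrg1 mrg2 and 25.7 ± 3.73 in Col-0 (SD, n = 3 each). None of 12 genes of perception and signalling, from the receptors to EIN3 and its F-box regulators, was listed, nor was any of 6 genes of the MAP kinase cascade upstream of ERF5 and ERF6. Of 11 ethylene response targets, RAV1, TEM1 and RAV2 were higher, and the plant defensin genes PDF1.2A and PDF1.2B, which ethylene and jasmonate induce, were lower. PDF1.2A had 233 ± 109 normalized counts in mrg1 mrg2 and 1159 ± 433 in Col-0 (SD, n = 3 each), and PDF1.2B had 16.9 ± 9.39 in mrg1 mrg2 and 177 ± 130 in Col-0.

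Of 15 stress genes linked to ERF6 in growing leaves, 4 were listed as higher, beside 2.31% of all genes tested, and 11 were not listed. These were the zinc finger genes ZAT10 and ZAT6 and the WRKY factor genes WRKY33 and WRKY40. ZAT10 had 2458 ± 709 normalized counts in mrg1 mrg2 and 1204 ± 101 in Col-0, and WRKY33 had 4763 ± 406 in mrg1 mrg2 and 2068 ± 905 in Col-0 (SD, n = 3 each). ZAT6 had 789 ± 56.7 in mrg1 mrg2 and 431 ± 75.7 in Col-0, and WRKY40 had 1356 ± 208 in mrg1 mrg2 and 624 ± 336 in Col-0. ZAT10, WRKY33 and WRKY40 were, like RAP2-13, ERF6 and ERF8 and 48.8% of all higher genes, highest among wild-type libraries in Col-0 replicate 1. ZAT6 was lowest in that library, at 347 normalized counts, against 495 and 450 in Col-0 replicates 2 and 3. Over all lists, 9 of 86 genes were listed as higher, beside 2.31% of all genes tested, and 2 as lower, beside 0.0913%. The remaining 75 were in neither table. Because the lists were chosen with earlier results of these data known, no enrichment can be read from these shares.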

How the data were processed

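Stranded, ribosomal RNA-depleted libraries were sequenced on a HiSeq2000, per the labels' protocols. Genome build TAIR10 and DESeq2 are named in the submitters' processing notes; no source used here gives the aligner, the counting tool or the covariates of the test. The 2 tables deposited by the authors hold only the genes they listed as differing. Per the file headers, these give raw read counts per gene and library, not normalized, the p-value and adjusted p-value of the authors' test, and their log2 fold change of mrg1 mrg2 over Col-0. No per-sample column was left unused.

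Size factors were recovered by fitting the factors that turn counts into the deposited log2 fold changes, over 435 genes with a mean of at least 50 counts (residual SD of log2 values 0.000886, and 0.00936 if all factors were 1). Log2 values carry a pseudocount of 0.5. The number of genes tested by the authors, 22995, was inferred by inverting the Benjamini-Hochberg adjustment; 195 further genes with adjusted p-values that would qualify are in neither table and were not analysed here. Libraries of a genotype differed by 13.2 to 38.2 times counting noise (chi-square per degree of freedom), so none was a repeat.

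Replicate numbers were taken to mark the shared experiment. Deviations from the genotype means over 435 genes correlated with r = 0.40, 0.55 and 0.32 for pairs sharing a number. For all other pairs r was -0.42 to 0.02. Because deviations are centred within a genotype, positive values for same-number pairs push the other pairs towards negative values. The other pairs are therefore no separate evidence for the pairing. Refits of the listed genes used edgeR's quasi-likelihood test (version 4.0.16; R 4.3.3) and DESeq2 (version 1.42.0), each fitted also with a block for replicate number. The edgeR fit was tested on simulated data for 552 genes, where it called 1 of 352 unchanged genes, 28% of genes with a 1.5-fold change and 69% with a 2-fold change. The simulation took each gene's spread from the fitted trend, used known size factors and left most genes unchanged. In the data nearly all these genes were listed as higher, so the simulated rates need not hold for the refits. Other values were computed in Python 3.11.15 with numpy 2.4.6 and pandas 2.3.3.

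Of the 552 listed gene identifiers, 549 were found in the RefSeq annotation of TAIR10.1, all with the strand the tables give; coordinates, proteins and promoters are from that build, since the tables hold no positions. Family members were found by annotated name or fixed list. Genes named are the 6, every other listed AP2/ERF gene, every listed member of the fixed lists, the 5 listed genes with a mean of at least 50 normalized counts whose deviations were most like the mean deviation of the 6, and listed direct neighbours. The 6 genes and the lists were chosen with earlier results of these data known.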

Additional observations from a re-analysis of the deposited data

How the results depend on the processing

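For the 6 genes, 63 of 66 alternative log2 differences were positive and 60 lay within 1 SD of the value reported. The other settings were raw counts, a pseudocount of 1, a replicate block, the authors' own fold change and leaving out each library. Most of these outcomes were fixed in advance. Without overlap of the genotypes, leaving out 1 library cannot change the sign, and with 3 libraries it cannot move a value by 1 SD. The replicate block gives the same mean difference by construction, and the size factors were fitted to the authors' fold changes. The tally is therefore no measure of robustness. The exceptions all came from size factors computed as the median of ratios over the listed genes. This scaling moved the differences of all higher genes by a median of -1.01. That follows from its construction, since 531 of the 552 genes it is centred on were listed as higher. Under it the median over the 6 genes was 0.013, against 1.02, with -0.23 for ERF1A, -0.20 for ERF5 and -0.071 for ERF6, and 0.20 for ERF8, 0.10 for RAP2-1 and 0.16 for RAP2-13. Leaving out 1 library gave medians of 0.90 to 1.16.

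In the edgeR refit, 2 of the 6 genes passed (ERF8 and RAP2-1), and 4 did with replicate number as a block, ERF1A and ERF5 being added. DESeq2 passed 6 without the block and 5 with the replicate block, RAP2-1 being lost. With TMM factors over the listed genes 0 passed, beside 27 of 531 higher genes. The cause is the same centring, which lowered the differences of the 6 genes by a median of 1.03. Leaving out 1 library gave 1 to 4: 4 without Col-0 replicate 1, 3 without mrg1 mrg2 replicate 1, 2 without mrg1 mrg2 replicate 2, and 1 (ERF8) without Col-0 replicate 2, Col-0 replicate 3 or mrg1 mrg2 replicate 3. A minimum mean of 10 counts left 2. ERF8 passed in each refit except that with TMM factors. The excess of Col-0 replicate 1, 0.27 as the median over the 6 genes, stayed between 0.14 and 0.39.

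The number of listed AP2/ERF genes was 13 whether the family was found by name or fixed list (141 genes) or by domain pattern (133 genes). With 3 libraries a genotype and no counts for unlisted genes, depth could not be assessed. RAP2-1, with 21 to 62 reads a library, rests on the fewest reads of the 6 genes.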
